A study of Mus musculus with 4 samples.

Results

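The genes described here encode the proteins of the sarcomere and of late muscle differentiation: sarcomeric actins, α-actinins, myosin heavy and light chains, troponins, the giant filaments, and proteins of the Z disc, the M band and muscle energy supply. They are a list of 36 symbols, put together with earlier results of these data known, and no threshold on reads or fold changes was applied to it. All 36 were found among the 56748 gene IDs of the count files by matching Ensembl IDs to mouse GENCODE symbols (release vM39, build GRCm39). Reads were counted on 16 of them and none on the other 20.

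The question asked of these data is how loss of hnRNP L, an RNA-binding protein, changes gene expression in muscle precursor cells. The cells were C2C12, an established line of mouse myoblasts that is labelled wild type, kept in growth medium with 10% fetal bovine serum. The scrambled cells carried a control shRNA plasmid and the knockdown cells a mixture of 3 shRNA plasmids against *Hnrnpl*. In both groups the plasmids also expressed eGFP, and stable cells were isolated as eGFP-positive clones under puromycin. Each group was sequenced as 2 libraries, numbered 1 and 2, by nanopore direct RNA sequencing of total RNA. The 2 libraries of a group came from different passages of a single selected line, so their spread, and any p-value built on it, describes passages of that line. A difference between the lines and an effect of the shRNA cannot be told apart. By the labels, batch 1 and batch 2 each hold 1 library of either group. The libraries held 1229424 to 1676911 reads counted on genes.

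The sarcomere is the repeating contractile unit of striated muscle. Thick filaments of myosin pull on thin filaments of actin, and the troponin complex on the thin filament makes this pull depend on calcium. α-Actinin and LDB3 hold the thin filaments at the Z disc, and myomesins link the thick filaments at the M band. Myoblasts divide in growth medium and switch on most of these genes once they leave the cell cycle and differentiate. The myogenic factors MyoD and myogenin bind E-boxes of muscle promoters, SRF binds CArG boxes, and TEAD proteins bind M-CAT elements.

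The labels were checked first. *Hnrnpl* had 358 and 656 reads in scrambled 1 and 2, against 242 and 258 in knockdown 1 and 2. Of the myoblast markers, *Myf5*, a myogenic transcription factor, had 113 to 190 reads per library and *Des*, the intermediate filament desmin, 242 to 571. *Myod1* had a single read, in scrambled 2, and *Pax7* and *Myog* had none. The 8 myoblast markers summed to 714 and 875 CPM (reads per 1000000 counted reads) in scrambled 1 and 2, against 556 and 475 in knockdown 1 and 2, and 3 of the 6 tested were called lower (*Cdh15*, *Chrna1* and *Des*), beside 3.22% of all 8670 genes tested. With the replicate number as a block 2 were called, since *Des* was no longer under the threshold (adjusted p = 0.0526 from edgeR). *Megf10*, a receptor of muscle satellite cells, lay the other way, at 57.7 and 75.7 CPM in scrambled, against 96.0 and 101 in knockdown, and was not called (log2 fold change 0.52, adjusted p = 0.0851 from edgeR). To be called, a gene had to pass 3 thresholds in edgeR: a mean normalized count over 10, a log2 fold change beyond 0.5 in either direction and an adjusted p under 0.05. The part of these markers in the results for the sarcomere genes was not tested.

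Markers of other cell types were mostly at or near 0. Of 5 adipocyte markers 2 had reads, with sums of 0 to 2 reads per library, and of 5 macrophage markers 3 had reads, with sums of 3 to 7. Of 5 osteoblast markers *Runx2* had 82 to 139 reads, *Bglap* 0 to 2, and *Sp7*, *Ibsp* and *Alpl* none. Of 7 smooth muscle markers 5 had reads, with *Acta2* at 3668 to 11542 reads per library, *Smtn* at 40 to 88, *Cnn1* at 6 to 44, *Actg2* at 3 to 21 and *Tagln* at 0 to 1. Exons of *Tagln* share 60.7% of their bases with the noncoding gene *Gm48529* and 6.02% with *Pcsk7*, both on the opposite strand. The strand setting of the counting is not given, so reads of *Tagln* may have been set aside, which was not tested. *Myh11*, the smooth muscle myosin heavy chain, and *Lmod1* were at 0. *Cnn1* had 44 and 23 reads in scrambled, against 15 and 6 in knockdown, and was not called (log2 fold change -1.49, adjusted p = 0.057 from edgeR). The summed smooth muscle markers were lower in both knockdown libraries (2732 and 3363 CPM, against 8396 and 6750 in scrambled). Nearly all of this sum was *Acta2*, with 22747 of the 22969 reads in scrambled and 7735 of the 7889 in knockdown. Of the 4 smooth muscle markers tested, 1 was called lower (*Acta2*) and 1 higher (*Actg2*, with a log2 fold change of 2.53), beside 3.22% and 2.33% of all genes tested. With the replicate number as a block 2 were called lower and 1 higher, and the local fit of DESeq2 called 1 lower and 0 higher. The part of these markers in the results for the sarcomere genes was also not tested.

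Most sarcomere genes had few or no counted reads in either group. No reads were counted on 20 of the 36 members, which is 55.6%, beside 41.6% of the 21630 protein-coding genes in the files. Fewer than 10 reads over all 4 libraries were counted on 28 members (77.8%), beside 54.2% of protein-coding genes. A count of 0 still allows 3 counts, or 1.79 to 2.44 CPM in a single library and 0.529 CPM over all 4, for counting error only. For the 20 members without reads, no difference between the groups could be measured. The limit holds for reads that the counting could assign to a gene, and it does not cover reads of a member that were set aside.

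The genes without reads fell in nearly every structural class. All 6 myosin heavy chains on the list, the motor subunits of the thick filament, had none: the embryonic and perinatal genes *Myh3* and *Myh8*, the fast genes *Myh1*, *Myh2* and *Myh4*, and the slow gene *Myh7*. The myosin-binding proteins *Mybph*, *Mybpc1* and *Mybpc2* also had none, and neither did the titin gene *Ttn*, whose product spans from Z disc to M band. On the thin filament and the Z disc, no reads were counted on the cardiac actin *Actc1*, the α-actinin *Actn2*, the slow troponin T *Tnnt1*, the fast troponin C *Tnnc2* and the titin cap *Tcap*. The list is completed by the myosin light chain *Myl1*, the costamere-associated genes *Cmya5* and *Smpx*, muscle creatine kinase *Ckm* and myoglobin *Mb*.

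Some of these zeros carry a limit from the counting. The strand setting of the counting is not given in the sources used here, and 16.0% to 16.5% of all reads were set aside by the authors' counting because they fell on more than 1 gene. Exons of 9 members share over 10% of their bases with a gene on the opposite strand, and 7 of these 9 had no reads. For *Tnnc2* the share is 68.7%, with *Ube2c*, which had 560 to 1030 reads per library. For *Mybph* it is 60.9%, with *Adora1*, which had none. Reads with a low mapping quality made up another 22.7% to 23.8% and were also left out. Coding sequences of the 6 myosin heavy chains are 79.5% to 91.2% identical in pairs. How many reads of the members were lost in these ways was not tested.

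Another 8 members had 1 to 9 reads in all, too few for any statement on direction. *Xirp1*, which encodes an actin-binding protein of cell adhesion sites, had 1 and 2 reads in scrambled, against 1 and 5 in knockdown. *Tnni1*, the slow troponin I, had 0 and 3 in scrambled, against 1 and 1 in knockdown. The giant thin-filament protein nebulin (*Neb*) had 4 reads in all and the M-band gene *Myom1* 3. The fast troponin genes *Tnni2* and *Tnnt3* had 3 reads each, and the calcineurin-binding Z-disc genes *Myoz1* and *Myoz2* had 1 and 2. The 3 reads on *Tnnt3* were all in scrambled 2.

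**Figure D1:**
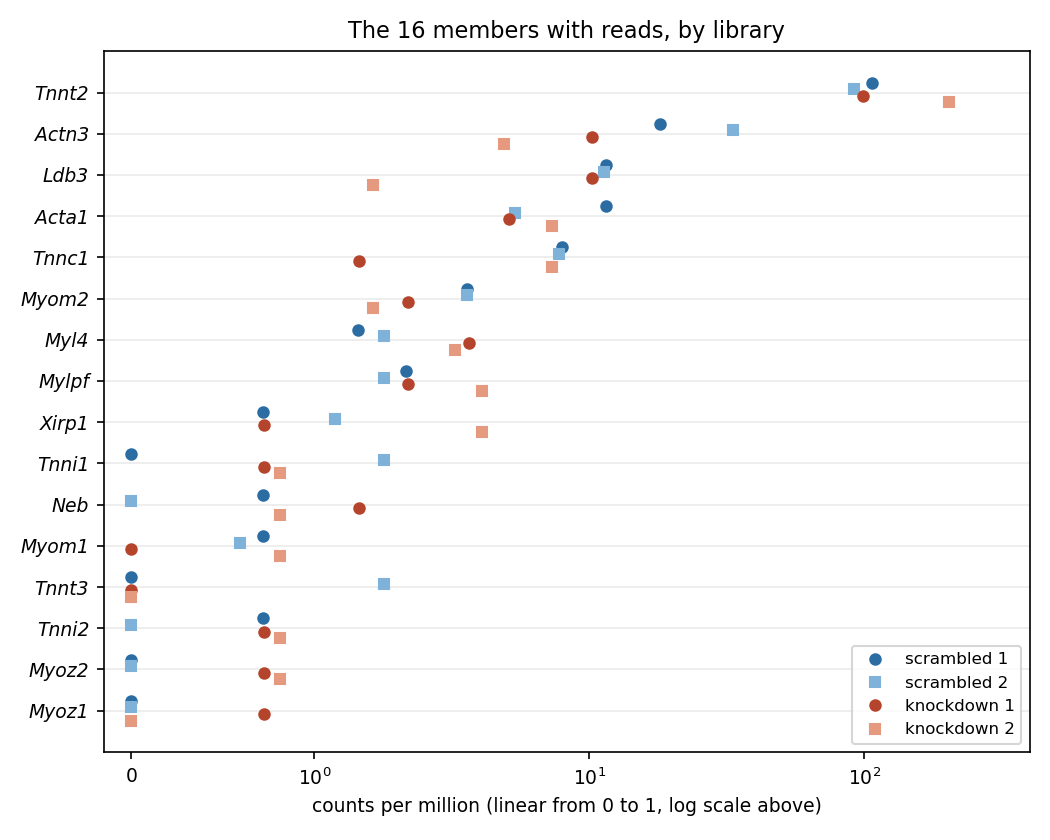
Level in CPM of the 16 members with reads in each of the 4 libraries, 1 point per library, on an axis that is linear from 0 to 1 and logarithmic above. *Tnnt2* lies above all other members, with knockdown 2 apart at 204 CPM, and in *Actn3* both knockdown points lie below both scrambled points.

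The cardiac troponin T gene *Tnnt2* held most of the reads of the whole group. Its product anchors the troponin complex to tropomyosin, and it is also made in embryonic skeletal muscle. *Tnnt2* (ENSMUSG00000026414.14, chromosome 1 from 135763738 to 135780315, forward strand) had 148 and 154 reads in scrambled 1 and 2, against 136 and 251 in knockdown 1 and 2. These are 107 and 91.8 CPM in scrambled, against 98.9 and 204 in knockdown. Knockdown 2 stood apart, and knockdown 1 lay between the scrambled libraries. *Tnnt2* made up 69.5% of the 991 reads on members, with 64.3% and 56.6% in scrambled, against 71.2% and 84.2% in knockdown.

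With TMM scaling in edgeR, to the mean library size, *Tnnt2* was at 142 ± 18.0 normalized counts in scrambled and 214 ± 112 in knockdown (SD, n = 2 each). The log2 fold change, knockdown minus scrambled, was 0.58 with a standard error of 0.24. The quasi-likelihood test of edgeR gave an adjusted p of 0.164 (Benjamini-Hochberg over all genes tested), so *Tnnt2* was not called, at an unadjusted p of 0.0267. The size rested on knockdown 2. Without that library edgeR gave a log2 fold change of -0.07 (adjusted p = 0.90), and without knockdown 1 it was 1.05 (adjusted p = 0.00805 from edgeR). *Tnnt2* was also called higher without scrambled 1 (0.71, adjusted p = 0.033 from edgeR) and when no filter on low counts was used (adjusted p = 0.0282 from edgeR). The ratio of knockdown to scrambled CPM was 0.928 in batch 1 and 2.22 in batch 2. The median log2 fold change of the tested genes on chromosome 1 was 0.19.

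The sequence just before the start of a few members is shown because these genes are classical examples of muscle promoters and because they differ in whether reads were found: *Tnnt2* and the skeletal actin *Acta1* had reads in every library and the cardiac actin *Actc1* in none. The sequences are the 250 bases before the RefSeq start, on build GRCm38.p6, printed along the strand of the gene. The capitals mark the motifs found by a search of both strands for the M-CAT element CATTCC, the E-box CANNTG and the CArG box, and no 2 of the marked matches overlap.
*Tnnt2* (chr1:135836084-135836333, forward): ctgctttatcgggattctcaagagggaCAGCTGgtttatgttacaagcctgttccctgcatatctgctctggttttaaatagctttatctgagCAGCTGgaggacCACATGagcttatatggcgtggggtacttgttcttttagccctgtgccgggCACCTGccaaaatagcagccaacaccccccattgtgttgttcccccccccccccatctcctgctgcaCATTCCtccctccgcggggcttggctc
*Acta1* (chr8:123894776-123895025, reverse): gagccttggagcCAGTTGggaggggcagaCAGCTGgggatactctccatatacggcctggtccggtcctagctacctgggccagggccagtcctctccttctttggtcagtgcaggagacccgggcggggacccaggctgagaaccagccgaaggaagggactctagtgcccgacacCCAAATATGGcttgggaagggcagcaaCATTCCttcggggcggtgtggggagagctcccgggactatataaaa
*Actc1* (chr2:114052876-114053125, reverse): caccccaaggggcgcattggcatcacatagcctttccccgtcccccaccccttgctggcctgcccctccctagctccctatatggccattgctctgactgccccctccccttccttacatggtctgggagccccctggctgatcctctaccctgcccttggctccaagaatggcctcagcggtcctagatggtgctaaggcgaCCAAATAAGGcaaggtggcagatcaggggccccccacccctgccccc

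In *Tnnt2* the capitals are 4 E-boxes and 1 M-CAT element, the latter 27 to 22 bases before the start. In *Acta1* they are 2 E-boxes, 1 CArG box from 73 to 64 bases before the start and 1 M-CAT element from 46 to 41 bases before it. *Actc1* has 1 CArG box, from 47 to 38 bases before its start, and no E-box or M-CAT element in this window. Upstream sequences were matched for 28 of the 36 members. An M-CAT element was found in 9 of the 28 (32.1%, beside 12.6% of all 27025 promoters searched), an E-box in 22 (78.6%, beside 66%) and a CArG box in 5 (17.9%, beside 1.4%). A MEF2 site was found in 5 (17.9%, beside 3.01%). It was searched on both strands as YTAWWWWTAR, with Y for C or T, W for A or T and R for A or G. These are matches of letters and say nothing of binding in these cells.

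The member with the plainest difference was *Actn3*, the α-actinin of fast fibers, which crosslinks thin filaments at the Z disc. *Actn3* (ENSMUSG00000006457.5, chromosome 19 from 4911215 to 4928529, reverse strand) had 25 and 56 reads in scrambled 1 and 2, against 14 and 6 in knockdown 1 and 2. Both knockdown libraries lay below both scrambled libraries. The levels were 18.0 and 33.4 CPM in scrambled, against 10.2 and 4.88 in knockdown. After TMM scaling this is 36.6 ± 14.8 normalized counts in scrambled and 10.5 ± 4.90 in knockdown (SD, n = 2 each).

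*Actn3* fell by 1.79 on the log2 scale with a standard error of 0.40 (edgeR, adjusted p = 0.0114) and was the only member called, out of the 5 tested, of which 4 had the mean count that a call required. Over all 8670 genes tested, 5.55% were called, 3.22% lower and 2.33% higher. The median of chromosome 19 was -0.23, and once the chromosome medians had been removed *Actn3* was at -1.56 (adjusted p = 0.0374 from edgeR). *Actn3* had a negative log2 fold change in all 11 alternatives that tested it, but the call did not hold in all. It was lost in the Wald test of DESeq2 (adjusted p = 0.0521 under the local fit and 0.21 under the parametric one), without scrambled 2 (-1.29, adjusted p = 0.169 from edgeR) and without knockdown 2 (-1.41, adjusted p = 0.0774 from edgeR). Without scrambled 1 the log2 fold change was -2.12, and without knockdown 1 it was -2.39. Within batches the ratio of CPM was 0.565 in batch 1 and 0.146 in batch 2.

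The count of *Actn3* is uncertain for a further reason. Its exons share 26.8% of their bases with *Ctsf*, a cathepsin gene on the opposite strand, and the strand setting is not known. If the counting ignored the strand, reads that fell on both genes were set aside and counted on neither. *Ctsf* had 5 and 16 reads in scrambled, against 2 and 1 in knockdown, so it moved in the same order. The part of this overlap in the *Actn3* result, and how many *Actn3* reads were set aside, was not tested. The coding sequences of *Actn3* and its relative *Actn2*, which had no reads, are 77.7% identical.

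The remaining members that passed the filter of edgeR encode an adaptor of the Z disc, an actin and a calcium sensor, and for 0 of these 3 was the unadjusted p of edgeR under 0.05. *Tnnc1*, with a mean of 8.74 normalized counts, was under the minimum of 10 and could not be called. *Ldb3*, which binds α-actinin at the Z disc, had 16 and 19 reads in scrambled, against 14 and 2 in knockdown. The levels in knockdown 1 (10.2 CPM) and scrambled (11.5 and 11.3 CPM) were close, and knockdown 2 (1.63 CPM) stood apart. The edgeR log2 fold change of *Ldb3* was -0.92 with a standard error of 0.51 (adjusted p = 0.305), on chromosome 14 with a median of -0.36. It was -0.23 without knockdown 2, -2.74 without knockdown 1 and -0.57 with the chromosome medians removed.

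*Tnnc1*, the calcium-binding troponin C of slow and cardiac muscle, had 11 and 13 reads in scrambled, against 2 and 9 in knockdown. Knockdown 1 was the low library, whereas knockdown 2 (7.32 CPM) was close to scrambled (7.93 and 7.75 CPM). The edgeR log2 fold change was -0.90 with a standard error of 0.56 (adjusted p = 0.372), also on chromosome 14. It was -0.09 without knockdown 1, -2.42 without knockdown 2 and -0.54 with the chromosome medians removed. The low library was thus knockdown 2 for *Ldb3* and knockdown 1 for *Tnnc1*, and the CPM ratio of *Tnnc1* was 0.184 in batch 1 and 0.944 in batch 2.

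*Acta1*, the main actin of adult skeletal muscle, had 16 and 9 reads in scrambled, against 7 and 9 in knockdown. The groups overlapped in CPM, with knockdown 2 above scrambled 2. The edgeR log2 fold change was -0.44 with a standard error of 0.50 (adjusted p = 0.654), and without scrambled 1 it was 0.19. The coding sequence of *Acta1* is 85.7% identical to that of the smooth muscle actin *Acta2*, which had 3668 to 11542 reads per library, and 86.3% identical to that of *Actc1*. Whether reads of *Acta2* reached *Acta1* was not tested.

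**Figure D2:**
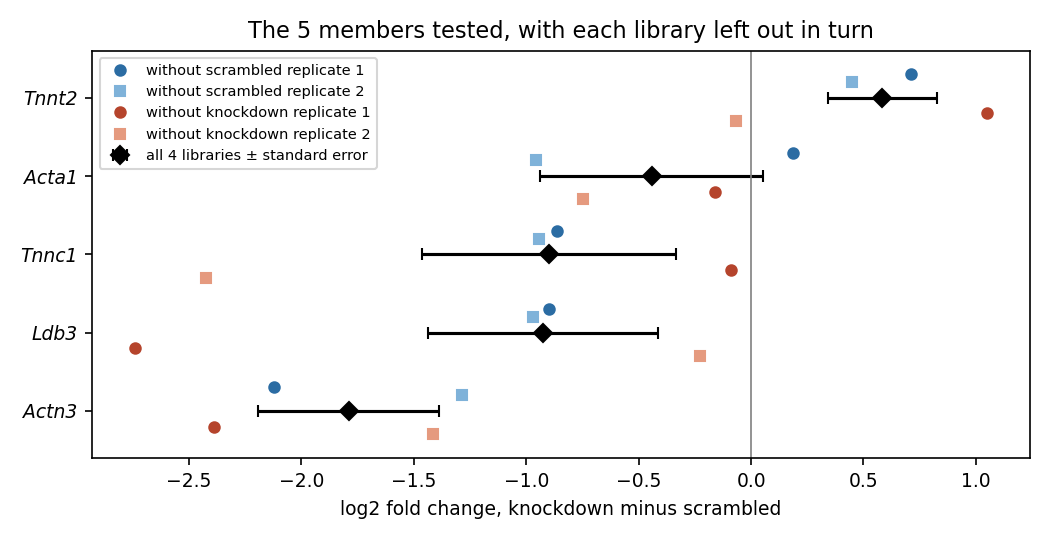
Log2 fold change of knockdown minus scrambled for the 5 members that passed the filter, with all 4 libraries (black, bars of 1 standard error) and with each library left out in turn (colored points). *Actn3* lies below 0 in all 5 fits, and *Tnnt2* moves from 0.58 to -0.07 without knockdown 2.

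Of these 5 members, 4 had a negative and 1 a positive log2 fold change, with a median of -0.90, beside 0.00 over all 8670 genes tested. The median was -0.16 without knockdown 1 and -0.54 with the chromosome medians removed. This describes only the members with enough reads to be tested and not the other 31. The filter works on these same counts. *Actn3*, *Ldb3* and *Tnnc1* each had a low count in 1 knockdown library (6, 2 and 2 reads) and in neither scrambled library. The signs and the median are therefore not independent of the filter and support no direction.

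A further 3 members had at least 10 reads without passing the filter, and these do not share a direction. *Myl4*, the embryonic and atrial essential light chain, had 2 and 3 reads in scrambled, against 5 and 4 in knockdown, a ratio of knockdown to scrambled CPM of 2.12 (95% interval from counting error 0.638 to 8.05). *Mylpf*, the fast regulatory light chain, had 3 and 3 reads in scrambled, against 3 and 5 in knockdown, a ratio of 1.57 (0.477 to 5.49). *Myom2*, a myomesin of the M band, had 5 and 6 reads in scrambled, against 3 and 2 in knockdown, a ratio of 0.535 (0.146 to 1.67). The counting interval of each ratio includes 1. Exons of *Mylpf* share 24.6% of their bases with *Septin1*, which had 1 read in all, and 4.76% with *Tbc1d10b*, which had 25 to 58 reads per library, both on the opposite strand. Exons of *Myl4* share 4.04% with *Cdc27*, also on the opposite strand, which had 117 to 181 reads per library.

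Among the 8 members with at least 10 reads, both knockdown libraries lay below both scrambled libraries in CPM for 4 (*Actn3*, *Ldb3*, *Tnnc1* and *Myom2*) and above them for 2 (*Myl4* and *Mylpf*, the latter by its depth alone, since knockdown 1 and both scrambled libraries had 3 reads each). Over the 10805 genes with at least 10 reads, the same was so for 22.4% below and 27.6% above. The groups overlapped for *Tnnt2* and *Acta1*. With 2 libraries against 2, an exact permutation test cannot give a p under 0.333, so no such test was made for single members.

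Summed over all 36 members, the 4 libraries held 230 and 272 reads in scrambled, against 191 and 298 in knockdown. These are 166 and 162 CPM in scrambled, against 139 and 242 in knockdown, so the groups overlapped. The ratio of the group sums was 1.15 (95% interval 1.01 to 1.30, counting error only), with 0.838 in batch 1 and 1.49 in batch 2. Libraries of 1 group differed by more than counting error, with a chi-square per gene of 2.54 in scrambled and 2.79 in knockdown where about 1 would come from counting alone, so these intervals are too narrow for a comparison of the lines.

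The sum changed direction once *Tnnt2* was left out. The other 35 members had 82 and 118 reads in scrambled, against 55 and 47 in knockdown, or 59.1 and 70.4 CPM against 40.0 and 38.2. Both knockdown libraries lay below both scrambled libraries, with a ratio of 0.600 (0.468 to 0.766). The ratio was 0.677 in batch 1 and 0.543 in batch 2, and it lay between 0.557 and 0.663 with single libraries left out. *Actn3* carried much of this. Without *Tnnt2* and *Actn3* the libraries held 57 and 62 reads in scrambled, against 41 and 41 in knockdown, a ratio of 0.811 (0.604 to 1.08), still lower in both knockdown libraries. In RNA from whole cultures, fewer cells that express these genes and less RNA per cell cannot be told apart.

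**Figure D3:**
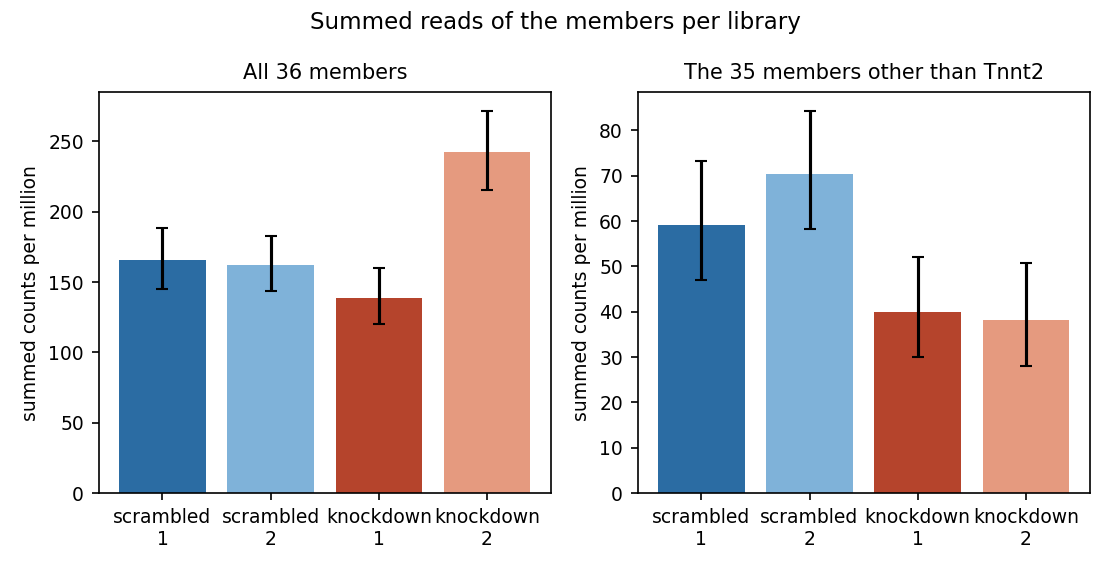
Summed CPM per library for all 36 members (left) and for the 35 members other than *Tnnt2* (right), with 95% Poisson intervals that cover counting error only. The groups overlap on the left, where knockdown 2 is at 242 CPM, and on the right both knockdown libraries, at 40.0 and 38.2 CPM, lie below scrambled.

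The 31 members that did not pass the filter summed to 14 and 21 reads in scrambled, against 18 and 21 in knockdown. The ratio was 1.31 with a counting interval of 0.809 to 2.13, which includes 1, so no direction was shown. By role, the light chains had 5 and 6 reads in scrambled, against 8 and 9 in knockdown, the M-band genes 6 and 7 against 3 and 3, and the Z-disc genes 16 and 19 against 16 and 3. The ratios were 1.82 (0.804 to 4.30) for the light chains, 0.543 (0.169 to 1.53) for the M band and 0.639 (0.345 to 1.15) for the Z disc. Each of these counting intervals includes 1, and a difference between roles was not tested. The α-actinins, with reads on *Actn3* alone, were at 0.291 (0.169 to 0.479). Troponin T, nearly all *Tnnt2*, was at 1.49 (1.28 to 1.74), with overlapping groups.

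Other genes of muscle were read from lists that hold no member. The calls in each list stand beside 3.22% called lower and 2.33% called higher over all 8670 genes tested. Of 16 other genes of the thick filament and M band, 5 had reads and 1 was tested. This was *Obsl1*, a cytoskeletal adaptor related to obscurin, with 42 and 39 reads in scrambled, against 9 and 13 in knockdown, and it fell by 1.67 on the log2 scale (adjusted p = 0.00887 from edgeR). Of 23 other genes of the thin filament and Z disc, 5 were tested and 2 were called lower. *Ankrd1*, a stretch-responsive partner of titin, fell by 0.74 (adjusted p = 0.00218 from edgeR) and *Des* fell by 0.56 (adjusted p = 0.0308 from edgeR). The call of *Ankrd1* held in all 12 alternatives and that of *Obsl1* in 9 of 11, whereas *Des* was called in 7 of 12 and lost its call with the replicate number as a block.

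Among 20 genes of excitation, calcium release and the neuromuscular junction, 5 were tested and 2 called lower. *Chrna1*, the α-subunit of the muscle acetylcholine receptor, had 255 and 409 reads in scrambled, against 120 and 78 in knockdown and fell by 1.53 (adjusted p = 3.4e-05 from edgeR). *Cacng1*, a calcium channel subunit, fell by 0.67 (adjusted p = 0.0444 from edgeR) and was called in 5 of 12 alternatives. Of the 4 tested genes of muscle energy metabolism, 0 were called by edgeR and 0 by the Wald test of DESeq2 with the local fit, and 0 had an unadjusted p under 0.05 in edgeR.

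Of the myogenic regulators, 9 of 18 were tested, and edgeR and the local fit of DESeq2 each called 3 higher and 0 lower, with 0 lower at an unadjusted p under 0.05 in edgeR. The genes called encode inhibitors of DNA binding, which sequester the partners of the myogenic factors. *Id1* rose by 0.94, *Id2* by 1.37 and *Id3* by 0.73 on the log2 scale (adjusted p = 0.000935, 1.85e-05 and 0.00459 from edgeR). The calls of *Id1* and *Id2* held in all 12 alternatives, and *Id3* lost its call without knockdown 1 (0.68, adjusted p = 0.0562 from edgeR). Of 6 tested genes of myoblast fusion and adhesion, 1 was called lower: *Cdh15*, or M-cadherin, had 113 and 152 reads in scrambled, against 25 and 14 in knockdown and fell by 2.55 (adjusted p = 2.03e-06 from edgeR).

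Among the actin and myosin genes of smooth muscle and non-muscle cells, 13 were tested, 2 were called lower and 1 higher. *Acta2* had 11542 and 11205 reads in scrambled, against 3668 and 4067 in knockdown and fell by 1.36 (adjusted p = 7.06e-05 from edgeR). *Myl9*, a regulatory light chain, had 83 and 78 reads in scrambled, against 13 and 21 in knockdown and fell by 2.04 (adjusted p = 0.000381 from edgeR). *Actg2*, the enteric smooth muscle actin, rose by 2.53 from 4 and 3 reads in scrambled to 15 and 21 in knockdown (adjusted p = 0.00635 from edgeR), a call that held in 7 of 11 alternatives. In this list 3 genes were called lower once the replicate number was a block.

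Over these 7 lists 43 genes were tested, and 8 were called lower and 4 higher, beside the 1 lower call among the 5 tested members and the shares of 3.22% lower and 2.33% higher over all genes tested. The lists were put together with earlier results of these data known, so the counts describe the lists and support no direction.

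**Figure D4:**
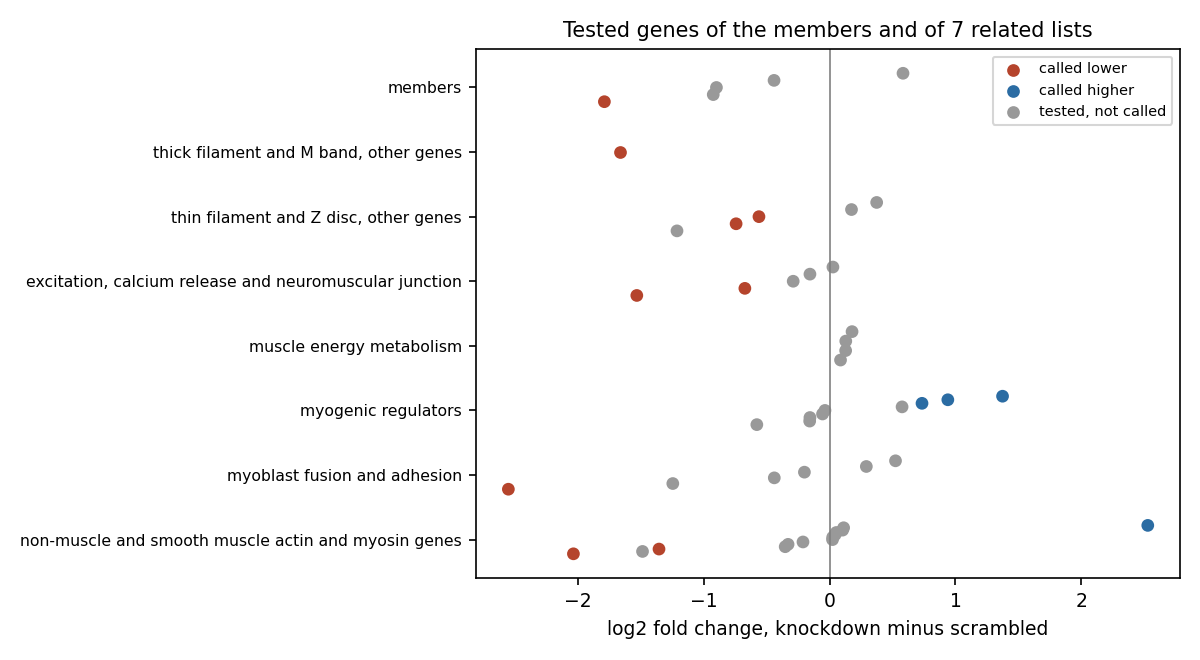
Log2 fold change of knockdown minus scrambled of every tested gene among the 36 members and in the 7 related lists, 1 point per gene, with red for genes called lower, blue for genes called higher and grey for the others. The members show 1 red point, *Actn3* at -1.79, and the 3 blue points of the myogenic regulators are *Id1*, *Id2* and *Id3*.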

How the data were processed

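RNA of 2 scrambled and 2 *Hnrnpl* knockdown libraries was read on a GridION sequencer. According to the article, the authors basecalled with guppy. The submitters' processing notes name GRCm39, minimap2 2.17, SAMtools and HTSeq 0.9.1. The deposited files hold raw counts per gene, and the annotation release and strand setting are not given in the sources used here. Reads not assigned to a gene were left out of library sizes, and 56.5% to 57.8% of all reads were counted on genes. Of the 56748 gene IDs, 56017 were found in GENCODE vM39.

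The 36 members and the related lists were chosen with earlier results of these data known. All genes were fitted in edgeR 4.0.16 (R 4.3.3) with TMM factors, filterByExpr, the quasi-likelihood test and Benjamini-Hochberg adjustment over the 8670 genes that passed. Members that passed the filter or had 10 or more reads were described singly, as were genes called in the related lists, at most 3 per direction and list. *Hnrnpl*, *Myod1*, *Myf5*, *Myog* and *Des* were read as checks, and the other marker genes named beside them were chosen after their values were seen. Ratios of reads have exact conditional binomial intervals and sums have exact Poisson intervals (95%).

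The batch label pairs libraries of the same number. Deviations from the group means of libraries numbered 1 had a correlation of -0.0125 between the groups, over the 5103 genes whose count was 30 or more in each library, and the replicate block was run as an alternative. Further alternatives were factors by RLE or upper quartile, a fit with no filter, a minimum of 10 counts in each library, the Wald test of DESeq2 1.42.0 with local and parametric fits, chromosome medians removed, the adjusted p alone and each library left out. The summed reads were also compared without *Tnnt2*, the member with the most reads. Further settings for that ratio, ratios of single members and the alternatives for the related lists and for the median of the tested members were added after seeing the data. The scripts were tested on simulated data. Transcript and exon counts were not analysed here.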

Additional observations from a re-analysis of the deposited data

How the results depend on the processing

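The number of members called lower was 1 and became 0 with a minimum of 10 counts in every library, where *Actn3* was no longer tested, and 0 in the Wald test of DESeq2 with the local and with the parametric fit. With single libraries left out it lay between 0 and 1, and it was 0 without scrambled 2 and without knockdown 2. By edgeR and by both fits of DESeq2, 0 members were called higher, with 1 (*Tnnt2*) at an unadjusted p under 0.05 in edgeR, and 1, the same gene, was called higher with no filter. With single libraries left out the number called higher lay between 0 and 1, and it was 1 without scrambled 1 and without knockdown 1. A fit without 1 library leaves a group with a lone library, which is assumed to vary like the other group. With single libraries left out, the log2 fold change of *Acta1* lay between -0.955 and 0.185, positive without scrambled 1, and that of *Tnnt2* between -0.0657 and 1.05, negative without knockdown 2. The ratio of the summed member reads moved from 1.15 to 0.600 without *Tnnt2*. With the replicate number as a block, 1 member was called lower and 0 higher, and the block changed no call of a member. No scaling moved the median of all genes by over 0.1 on the log2 scale. Over all genes, the Wald test of DESeq2 called 148 genes lower and 80 higher with the local fit and 71 and 44 with the parametric fit, where edgeR called 279 and 202. With the chromosome medians removed edgeR called 179 and 106, and without knockdown 1 it called 112 and 82. The call of *Hnrnpl* held in 9 of 12 alternatives. Fewer than 10 reads over the 4 libraries were counted on 28 of the 36 members, and for these no fold change is given.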
